A study of Mus musculus with 9 samples.

Results

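The genes described here are the 42 members of the machinery that makes, stores and breaks down neutral lipid, read out of a table of 55471 gene IDs. The members were taken by name and not by a rule on their values, but with earlier results of these data known. They fall into 19 genes of triacylglycerol (TAG) and sterol ester synthesis, 9 genes of lipolysis and its regulators, and 14 genes of lipid droplet (LD) coat, fusion and assembly proteins. RNA was sequenced from 9 libraries of embryoid bodies (EBs), the aggregates in which mouse embryonic stem cells (ESCs) start to differentiate, with 3 libraries per group. WT EBs were made from the parental ESC line E-14, and KO EBs (genotype Tnfaip2-/-) from 1 clone of that line in which CRISPR editing had placed an early stop codon in *Tnfaip2*. The KO_PAPC group was made from the same KO cells and received 2 lipids at 8 μM each: palmitic acid (PA), a saturated fatty acid, and its carnitine ester palmitoyl-L-carnitine (PC), the form in which palmitate enters mitochondria. All EBs formed in hanging drops of 1000 cells over 3 days and were harvested after 3 further days of in vitro differentiation. By the study's methods PA/PC was present during both periods. Those methods name ESC medium for EB formation in general, but fibroblast medium for EB formation with PA/PC. If the media differed in this way, that difference cannot be told apart from the effect of the lipids. The WT group received no PA/PC, so the effect of the lipids on WT EBs is not part of the design. Both contrasts with KO, KO versus WT and KO_PAPC versus KO, use the same 3 KO libraries. The study calls the libraries biological replicates and describes separate pools of EBs for the KO and KO_PAPC groups, so the p-values measure the spread between libraries of the same ESC line or clone. Libraries of a group were very alike, with correlations of their log levels from 0.99916 to 0.99936. With 1 KO clone, a trait of that clone cannot be told apart from the loss of *Tnfaip2*.

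Cells store surplus fatty acids as TAG in LDs, which bud from the endoplasmic reticulum under a phospholipid monolayer coated with proteins. The glycerol-3-phosphate pathway adds acyl chains stepwise through glycerol-3-phosphate acyltransferases, lysophosphatidic acid acyltransferases, the lipin phosphatases and, last, the diacylglycerol acyltransferases, while sterol acyltransferases make the cholesteryl esters that share the droplet core. Stored TAG is released again by a chain of lipases that starts with ATGL (*Pnpla2*) and ends with monoacylglycerol lipase (*Mgll*), and perilipins and CIDE proteins on the surface control access to the core and droplet growth.

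Depth was even, with 27362913 to 28914312 counts per library, and a count of 3, taken as the detection floor, corresponded to 0.0997 to 0.119 CPM. CPM values are counts brought to a common library size, here with TMM size factors over the 9 libraries, and log2 fold changes are from edgeR's quasi-likelihood fits of 3 against 3 libraries and are written with ± their standard error (SE). The share of mitochondrial reads was 1.26% to 1.34% for KO_PAPC, 1.85% to 1.87% for WT and 1.96% to 1.98% for KO libraries. Marker lists of cell types moved between the groups. The summed level of 10 primitive and visceral endoderm markers spanned 464 to 478 CPM among WT, 256 to 263 among KO and 37.8 to 38.6 among KO_PAPC libraries, and all 10 were lower in KO_PAPC than in either other group, while in KO 7 were lower and 3 higher than in WT. The sum of 5 neuroectoderm markers spanned 333 to 341 CPM among WT, 218 to 222 among KO and 528 to 538 among KO_PAPC libraries. All 5 were lower in KO than in WT, by log2 fold changes from -3.92 to -0.198, and higher in KO_PAPC than in KO. *Otx2*, the largest term of the sum, had the smallest of these changes in KO. The sum of 7 ESC markers was 2468 to 2473, 3435 to 3465 and 2834 to 2850 CPM in the same order of groups. Only 3 of these 7 were higher in KO_PAPC than in WT and 4 were lower. Fibroblast markers summed to 8.34 to 8.8 (WT), 15.5 to 17.1 (KO) and 12.1 to 13.8 CPM (KO_PAPC). The sums of mesoderm and cardiomyocyte markers also differed between the groups. The 5 adipocyte markers summed to at most 0.432 CPM in every library and the 5 macrophage markers to at most 0.796 CPM, with *Adipoq* and *Lep* at or near 0. *Tnfaip2* itself was at 0.169 to 0.972 CPM, on 6 to 16 counts in WT, 5 to 8 in KO and 14 to 25 in KO_PAPC libraries. It was too low to test in KO versus WT, and was higher in KO_PAPC than in KO (1.72 ± 0.363 in edgeR, adjusted p = 5.49e-05) and WT (0.95 ± 0.343 in edgeR, adjusted p = 0.0164). A stop codon need not remove the transcript, so these levels do not check the KO labels. What part the shifts in cell type markers and mitochondrial reads have in the results below was not tested. In bulk RNA, fewer cells of a type and less RNA per cell cannot be told apart.

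In KO EBs most members were somewhat lower than in WT and few differed by a large factor. Of 41 members tested in KO versus WT, 12 were called higher (29.3%) and 21 lower (51.2%) at an adjusted p under 0.05, where 36.8% of all 17355 tested genes were called higher and 37.1% lower. The median log2 fold change was -0.13 over the members and -0.0059 over all tested genes. A second rule asked for a change tested to exceed 2-fold. By that rule *Cidea* and *Cidec* were higher in KO and *G0s2* and *Hsd17b11* lower, 2 members each way, where 5.36% of all genes were called higher and 3.79% lower. DESeq2 kept *Cidea* and *Hsd17b11* of these 4.

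With PA/PC the members moved further, and so did all tested genes. Taken without sign, the median log2 fold change of the members was 0.46 between KO and WT. Between KO_PAPC and KO it was 0.63. Over all tested genes these medians were 0.36 and 0.54. Of 41 members tested in KO_PAPC versus KO, 18 were called higher and 18 lower (43.9% each). Of 17167 genes, 39.6% were higher and 42.2% lower. Past 2-fold, *Gpat4*, *Mogat2*, *Soat1*, *Lpl* and *Hilpda* rose, 5 members, and *Gpat2*, *Gpat3*, *Lclat1*, *Lpin3*, *Soat2*, *Pnpla3*, *Mgll*, *Cidea* and *Cidec* fell, 9 members, where 6.26% of all genes rose and 14.4% fell by that rule. *Lpin3* was lost from this rule without KO_PAPC replicate 1 (log2 fold change -1.13) or replicate 2 (-1.08), and with no filter on low counts. DESeq2 left out *Lclat1*, *Lpin3*, *Pnpla3* and *Lpl*, which leaves 10 members, and scaling by library totals left out *Gpat4* (0.95) and *Lpl* (1.01). In KO_PAPC versus WT, 10 of 40 tested members were higher and 20 lower, where 34.2% of 16655 genes were higher and 36.4% lower. No member was higher than in WT past 2-fold (edgeR), also at an unadjusted p and in DESeq2, against 0.961% of all genes, and *Gpat2*, *Gpat3*, *Soat2* and *Mgll* were lower, against 7.05%. When KO_PAPC libraries were scaled by their totals instead of TMM, the median of all genes shifted from -0.0166 to -0.18 in this contrast, and 7 members were called higher and 27 lower, the latter now including *Agpat1*, *Agpat5*, *Lpin1*, *Pnpla2*, *Plin2*, *Plin4* and *Aup1*.

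**Figure D1:**
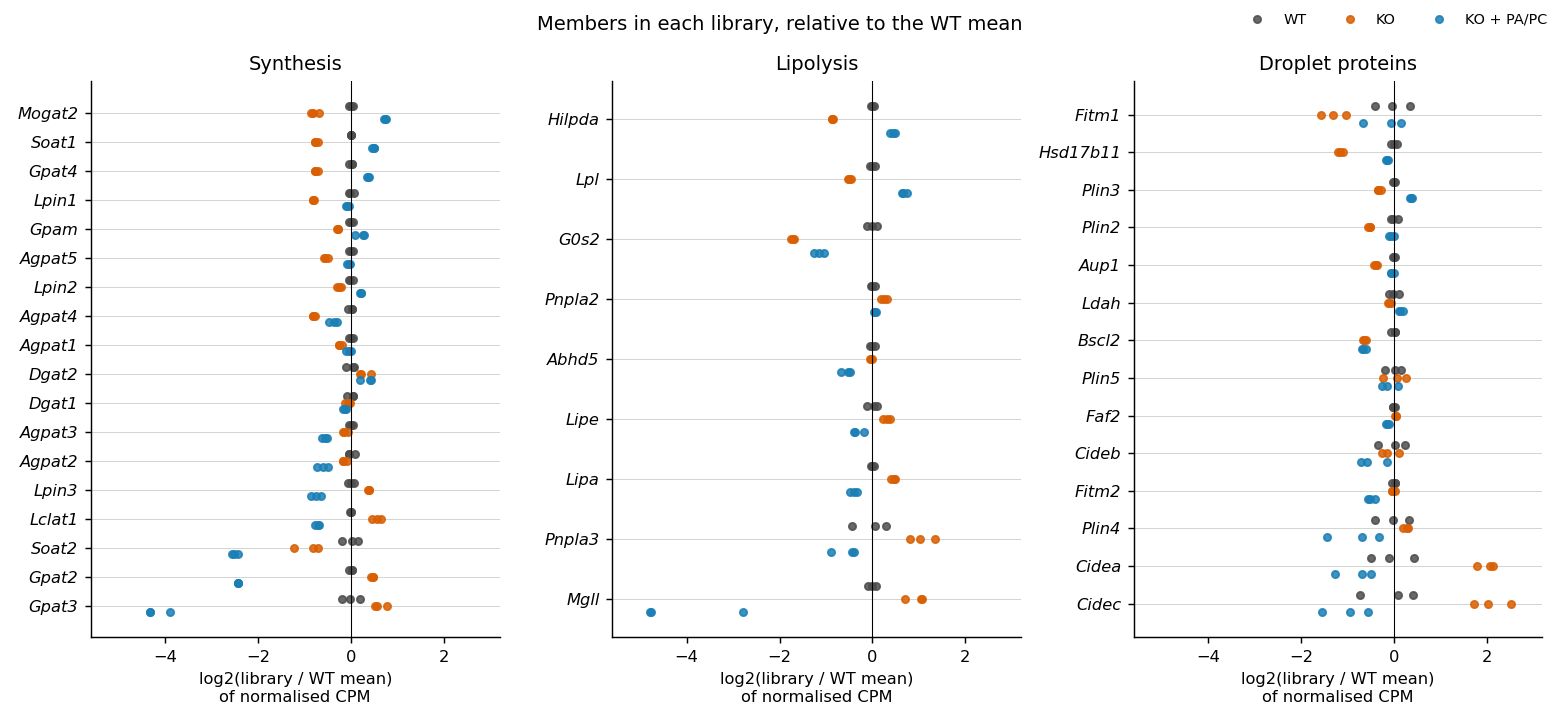
Each point is 1 library, placed at the log2 ratio of its normalised CPM to the mean of the 3 WT libraries, for the 41 members that were tested in at least 1 contrast, ordered in each panel by the ratio of KO_PAPC to KO. *Gpat3* and *Mgll* lie furthest to the left in the KO_PAPC libraries, and *Cidea* and *Cidec* lie furthest to the right in the KO libraries.

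The first committed step of TAG synthesis, acylation of glycerol-3-phosphate, was split among its 4 isoforms in proportions that differed between the groups. *Gpat4* (GPAT4, an enzyme of the endoplasmic reticulum that can move onto LDs; chromosome 8, 23171265 to 23208346 of GRCm38) stood at 143, 144 and 138 (WT), 86.5, 82.5 and 83.0 (KO), and 180.3, 183 and 186 (KO_PAPC) normalised CPM. The groups did not overlap, and KO was lowest and KO_PAPC highest. Absence of overlap, here and below, was common: it held for 75.3% of all tested genes in KO versus WT. The share was 82.2% in KO_PAPC versus KO and 72.6% in KO_PAPC versus WT. *Gpat4* was 1.69-fold lower in KO than in WT, with a log2 fold change of -0.76 ± 0.0298 in edgeR, adjusted p = 1.24e-21, and 2.17-fold higher in KO_PAPC than in KO (log2 fold change 1.119 ± 0.0306 in edgeR, adjusted p = 4.25e-28). *Gpat2* (GPAT2, a mitochondrial isoform best known from testis; chromosome 2, 127425199 to 127436092) took the opposite course, at 46.1, 43.5 and 45.7 (WT), 61.2, 62.8 and 62.6 (KO), and 8.36, 8.30 and 8.38 (KO_PAPC) CPM. KO libraries were the highest and KO_PAPC libraries lay far below both other groups. The rise in KO was 1.38-fold (log2 fold change 0.46 ± 0.0368 in edgeR, adjusted p = 2.82e-13) and the fall with PA/PC 7.47-fold (-2.90 ± 0.0534 in edgeR, adjusted p = 1.75e-33), which left KO_PAPC 5.43-fold below WT.

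*Gpat3* (GPAT3, the main isoform of adipocytes; chromosome 5, 100845713 to 100899102) fell most with PA/PC, together with *Mgll*. Its 9 libraries read 8.59, 9.90 and 7.54 (WT), 12.8, 12.5 and 14.9 (KO), and 0.583, 0.435 and 0.429 (KO_PAPC) CPM, the KO_PAPC libraries resting on 15, 11 and 11 counts. The drop from KO to KO_PAPC was 27.6-fold (log2 fold change -4.79 ± 0.152 in edgeR, adjusted p = 4.61e-26). Of its exonic bases, 37.4% are shared with other annotated genes, most of them antisense. By the study's methods reads over several genes were left out, so reads from those bases may be missing from its count. *Gpam* (GPAT1, the mitochondrial isoform of liver) ranged from 30.5 to 45.6 CPM, and was lower in KO than in WT (-0.29 ± 0.0426 in edgeR, adjusted p = 2.03e-07) and higher in KO_PAPC than in KO (0.50 ± 0.0477 in edgeR, adjusted p = 7.81e-12).

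Per length of exon, the 4 genes together changed less than their shares. The family total, in normalised CPM per kb, was 46.5 ± 0.683 for WT, 44.7 ± 0.387 for KO and 37.2 ± 0.574 for KO_PAPC libraries (SD, n = 3). Within that total *Gpat4* held 45.6% ± 0.43 in WT, 28.1% ± 0.841 in KO and 73.5% ± 1.04 in KO_PAPC. *Gpat2* held 36.9% ± 1.34, 53.0% ± 0.784 and 8.53% ± 0.092 in the same order. *Gpat2* thus had the largest share of the family in KO and *Gpat4* in the other groups. *Gpat3* went from 5.32% in WT and 8.54% in KO to 0.37% in KO_PAPC, and *Gpam* from 12.2% and 10.3% to 17.6%.

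**Figure D2:**
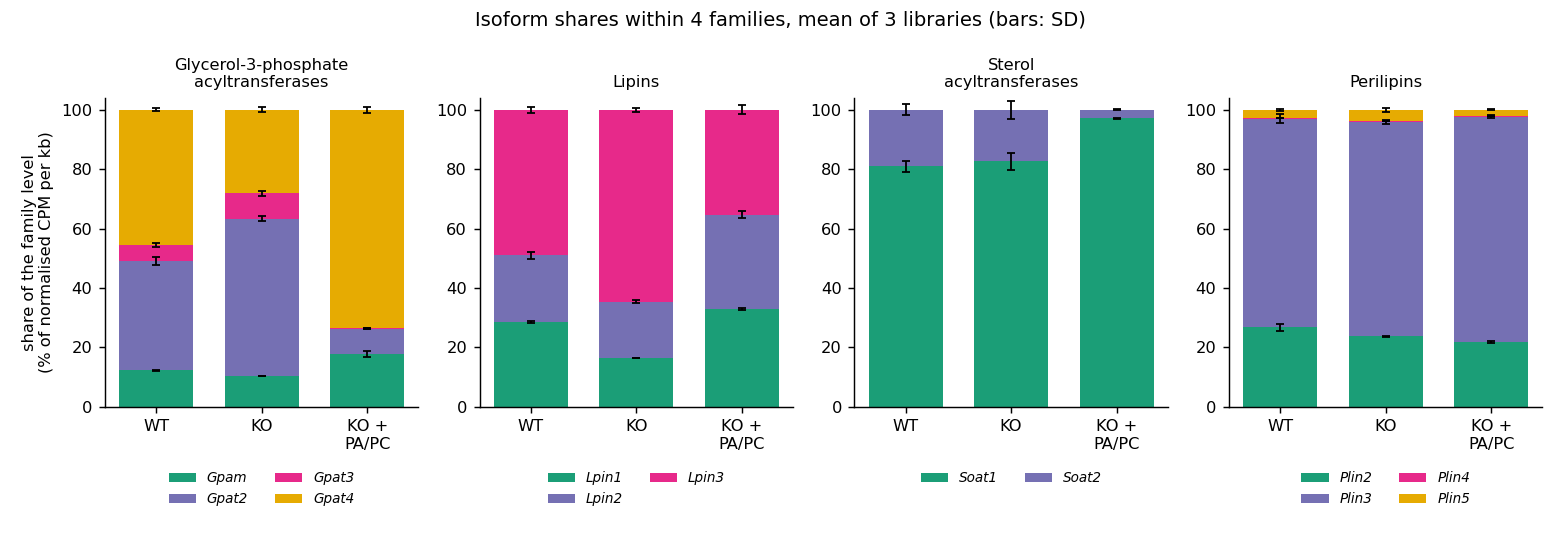
Stacked bars give the share of each isoform in the summed normalised CPM per kb of its family, as the mean of 3 libraries with the SD drawn at the top of each segment, for WT, KO and KO_PAPC EBs. The *Gpat2* segment is the largest of its family in KO and small in KO_PAPC, where *Gpat4* holds 73.5%, and *Lpin3* falls from 64.6% of the lipins in KO to 35.3% in KO_PAPC.

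The lysophosphatidic acid acyltransferases, which add the second acyl chain, differed by smaller factors. Of 6 genes in the group, 5 were lower in KO than in WT and 1 was higher, where 37.1% of all tested genes were lower and 36.8% higher. *Agpat1* (AGPAT1), the member with the highest level per length of all synthesis genes, was at 107, 113 and 109.5 (WT), 95.8, 91.7 and 91.2 (KO), and 101, 107 and 109.6 (KO_PAPC) CPM. Only the KO libraries stood apart, below the others: -0.24 ± 0.0307 in edgeR, adjusted p = 1.64e-08 against WT and 0.19 ± 0.0337 in edgeR, adjusted p = 5.55e-06 for KO_PAPC against KO. KO_PAPC and WT overlapped (-0.057 ± 0.0350 in edgeR, adjusted p = 0.151), while scaling by library totals put KO_PAPC lower (-0.22, adjusted p = 4.35e-06). *Agpat4* (-0.81 ± 0.0415 in edgeR, adjusted p = 2.41e-18) and *Agpat5* (-0.54 ± 0.0281 in edgeR, adjusted p = 2.82e-18) were lower in KO by larger amounts, and both were higher in KO_PAPC than in KO. *Agpat2* and *Agpat3* were slightly lower in KO, at -0.14 and -0.13 on the log2 scale, and lower again with PA/PC, at -0.47 and -0.44 against KO. The *Agpat2* call in KO was lost without WT replicate 2 (log2 fold change -0.11, edgeR adjusted p = 0.0524).

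*Lclat1*, whose product remodels cardiolipin and other lysophospholipids, was the exception. It was at 14.3, 14.4 and 14.2 (WT), 19.7, 21.02 and 22.3 (KO), and 8.94, 8.70 and 8.34 (KO_PAPC) CPM, with KO highest, KO_PAPC lowest and no overlap between groups. It was 1.47-fold higher in KO than in WT (0.55 ± 0.0583 in edgeR, adjusted p = 2.74e-10) and 2.43-fold lower in KO_PAPC than in KO (-1.28 ± 0.0692 in edgeR, adjusted p = 6.41e-19).

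Among the lipins, the phosphatases that turn phosphatidic acid into diacylglycerol, *Lpin3* differed from the rest of its family. *Lpin3* was at 16.6, 18.1 and 17.6 (WT), 22.4, 22.8 and 23.0 (KO), and 10.3, 9.56 and 11.2 (KO_PAPC) CPM. KO lay above WT (0.38 ± 0.0535 in edgeR, adjusted p = 9.97e-08) and KO_PAPC below both, 2.21-fold under KO (-1.14 ± 0.0645 in edgeR, adjusted p = 2.53e-18). *Lpin1* showed the reverse order, with group means of 26.5 ± 1.09, 15.1 ± 0.11 and 25.2 ± 0.653 CPM (SD, n = 3) in WT, KO and KO_PAPC. Its difference was -0.82 ± 0.0535 in edgeR, adjusted p = 1.79e-15 for KO against WT and 0.74 ± 0.0559 in edgeR, adjusted p = 1.29e-14 for KO_PAPC against KO, and KO_PAPC was not told apart from WT (-0.079 ± 0.0514 in edgeR, adjusted p = 0.172). *Lpin2* followed *Lpin1* with smaller changes, -0.26 and 0.46. Per length, *Lpin3* held 49.0% of the family in WT, 64.6% in KO and 35.3% in KO_PAPC, while the family total was 9.62, 9.53 and 7.91 CPM per kb.

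The last step, from diacylglycerol to TAG, was steadier than the steps before it. *Dgat1* ranged from 30.9 to 35.8 CPM and *Dgat2* from 8.86 to 13.0 CPM over the 9 libraries. *Dgat2* was higher than WT in KO (0.28 ± 0.0754 in edgeR, adjusted p = 0.00120) and in KO_PAPC (0.34 ± 0.0796 in edgeR, adjusted p = 0.000490). *Dgat1* was lower than WT only in KO_PAPC (-0.14 ± 0.0472 in edgeR, adjusted p = 0.00878). That call was lost in DESeq2 (log2 fold change -0.13, adjusted p = 0.105) and without WT replicate 3 (-0.13, edgeR adjusted p = 0.0528). Without WT replicate 1 *Dgat1* was also lower in KO (-0.12, edgeR adjusted p = 0.0223). Between KO and KO_PAPC the difference was -0.067 ± 0.0472 for *Dgat1* (edgeR adjusted p = 0.190) and 0.062 ± 0.0774 for *Dgat2* (adjusted p = 0.459). The sum of both per length was 14.5 ± 0.7, 14.6 ± 0.733 and 14.3 ± 0.6 CPM per kb in WT, KO and KO_PAPC.

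*Mogat2*, which makes diacylglycerol from monoacylglycerol as in the gut, had the largest rise of all members with PA/PC. It was at 7.61, 7.86 and 8.13 (WT), 4.31, 4.43 and 4.89 (KO), and 13.1, 13.3 and 12.9 (KO_PAPC) CPM. The groups did not overlap, with KO lowest and KO_PAPC highest: -0.79 ± 0.0903 in edgeR, adjusted p = 1.51e-09 in KO versus WT, and 2.87-fold higher in KO_PAPC than in KO (1.52 ± 0.0844 in edgeR, adjusted p = 1.42e-18). Its paralogue *Mogat1* had 1 to 5 counts in each library and was not tested.

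The sterol acyltransferases, which esterify cholesterol for storage in LDs, parted under PA/PC. *Soat1* (ACAT1, the broadly expressed isoform; chromosome 1, 156424525 to 156474331) was at 202, 202 and 202 (WT), 119, 118 and 124 (KO), and 285, 276 and 284 (KO_PAPC) CPM. KO was lowest and KO_PAPC highest, with no overlap. *Soat1* was 1.68-fold lower in KO than in WT (-0.75 ± 0.0266 in edgeR, adjusted p = 6.08e-23) and 2.34-fold higher in KO_PAPC than in KO (1.23 ± 0.0286 in edgeR, adjusted p = 2.82e-30). *Soat2* (ACAT2, the isoform of gut and liver) was at 9.37, 10.8 and 12.02 (WT), 6.54, 6.08 and 4.55 (KO), and 1.83, 1.98 and 1.87 (KO_PAPC) CPM and fell at both steps. It was lower in KO than in WT (-0.91 ± 0.0998 in edgeR, adjusted p = 6.32e-10), and lower in KO_PAPC than in KO (-1.598 ± 0.143 in edgeR, adjusted p = 1.32e-12), which put KO_PAPC 5.70-fold below WT. *Soat2* was 19.0% ± 1.89 of the pair per length in WT, 17.4% ± 2.96 in KO and 2.89% ± 0.166 in KO_PAPC.

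Over all synthesis genes, 5 of 18 tested members were higher (27.8%) and 12 lower (66.7%) in KO than in WT. The median was -0.25 on the log2 scale, and of all tested genes 36.8% were higher and 37.1% lower. In KO_PAPC versus KO, 9 were higher (50%) and 7 lower (38.9%) with a median of 0.12, against 39.6% and 42.2% of all genes. Past 2-fold, 3 rose (16.7%) and 5 fell (27.8%), against 6.26% and 14.4% of all genes. Against WT, KO_PAPC had 6 higher (33.3%) and 9 lower (50%), where 34.2% and 36.4% of all genes were.

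For *Gpat2* and *Soat1*, which moved in opposite directions, the bases before the annotated start are shown from RefSeq (GRCm38.p6). They were searched on both strands for 5 motifs, and matches are in capitals. One was ACGTG, the core of hypoxia response elements, and another the E-box motif CACGTG, which overlaps it by containing the same letters. The others were the core promoter element TATAAA, the CCAAT motif bound by the factor NF-Y, and the half-site of nuclear receptors, which reads AGGTCA. Each window held 1 CCAAT, which for *Gpat2* lies on the other strand and reads ATTGG. Of 32851 mouse promoter windows of 250 bases, 33.8% hold a CCAAT, as do 32.6% of the 46 windows found for 33 of the members. The *Gpat2* window is chr2:127424949-127425198 on the plus strand and the *Soat1* window chr1:156474332-156474578 on the minus strand.
Gpat2: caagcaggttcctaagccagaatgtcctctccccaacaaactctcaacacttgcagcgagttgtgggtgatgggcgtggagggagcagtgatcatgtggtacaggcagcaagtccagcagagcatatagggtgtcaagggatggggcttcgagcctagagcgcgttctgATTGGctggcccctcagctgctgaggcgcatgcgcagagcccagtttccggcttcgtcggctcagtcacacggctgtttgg
Soat1: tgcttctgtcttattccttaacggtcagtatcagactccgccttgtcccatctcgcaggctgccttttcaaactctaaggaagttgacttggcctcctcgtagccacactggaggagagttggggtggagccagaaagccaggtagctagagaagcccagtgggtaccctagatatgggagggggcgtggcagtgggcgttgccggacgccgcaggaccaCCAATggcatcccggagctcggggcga

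Lipolysis was represented by lipases and by regulators of ATGL. Of 6 lipases, 5 were higher and 1 lower in KO versus WT, and 1 was higher and 5 were lower in KO_PAPC versus KO. Over all tested genes 36.8% were higher and 37.1% lower in the first contrast, and 39.6% and 42.2% in the second. *Pnpla2* (ATGL), which cleaves the first acyl chain from TAG, had the highest level per length among the lipases in every group, at 44.6, 47.2 and 45.2 (WT), 56.5, 54.6 and 51.8 (KO), and 46.6, 48.5 and 47.2 (KO_PAPC) CPM. KO libraries were the highest, and WT and KO_PAPC overlapped. The differences were small, 0.25 ± 0.0395 in edgeR, adjusted p = 1.12e-06 between KO and WT and -0.20 ± 0.0410 in edgeR, adjusted p = 3.86e-05 between KO_PAPC and KO. Against WT, KO_PAPC differed by 0.046 ± 0.0411 in edgeR, adjusted p = 0.324. Under scaling by library totals that last difference changed sign, to -0.12 (edgeR adjusted p = 0.0129). *Lipe* (hormone-sensitive lipase, which acts on diacylglycerol) ranged from 6.55 to 11.1 CPM and went the same way, 0.31 and -0.63.

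*Mgll* (monoacylglycerol lipase, the last enzyme of TAG breakdown; chromosome 6, 88724412 to 88828360) nearly disappeared from KO_PAPC libraries. It was at 2.17, 2.04 and 2.29 (WT), 4.55, 3.50 and 4.46 (KO), and 0.0777, 0.0790 and 0.312 (KO_PAPC) CPM. KO lay above WT, and the KO_PAPC libraries held 2, 2 and 8 counts, 2 of them under the floor. The rise in KO was 1.92-fold (0.94 ± 0.133 in edgeR, adjusted p = 1.13e-07). From 371 counts in KO to 12 in KO_PAPC the ratio was 26.7, with an exact 95% interval of 15.1 to 52.1 that covers counting error only. The edgeR log2 fold change was -4.70 ± 0.274 in edgeR, adjusted p = 6.22e-18. Against WT the ratio was 13.8 (7.74 to 27.3).

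*Pnpla3* (adiponutrin, a relative of ATGL found on LDs) was weakly expressed and had the same order, at 1.116, 0.796 and 1.32 (WT), 2.76, 2.198 and 1.90 (KO), and 0.583, 0.790 and 0.819 (KO_PAPC) CPM. It was 2.11-fold higher in KO than in WT (1.08 ± 0.191 in edgeR, adjusted p = 6.31e-06) and 3.12-fold lower in KO_PAPC than in KO (-1.64 ± 0.213 in edgeR, adjusted p = 1.02e-08). KO_PAPC and WT overlapped, and their difference (-0.57 ± 0.251 in edgeR, adjusted p = 0.0477) was no longer called without any 1 of 5 of the 6 libraries (log2 fold change from -0.65 to -0.40) nor in DESeq2.

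*Lipa* (lysosomal acid lipase, which acts when droplets are taken up by autophagy) was at 31.2, 30.2 and 30.8 (WT), 42.6, 40.7 and 43.1 (KO), and 24.4, 23.5 and 22.1 (KO_PAPC) CPM, with no overlap between groups. KO was highest (0.45 ± 0.0423 in edgeR, adjusted p = 1.50e-11 against WT) and KO_PAPC lowest (-0.86 ± 0.0490 in edgeR, adjusted p = 3.38e-18 against KO). *Lpl* (lipoprotein lipase, which works outside the cell on circulating TAG) was the lipase that ran the other way, at 17.1, 16.8 and 17.8 (WT), 12.4, 12.1 and 11.97 (KO), and 28.8, 26.8 and 27.1 (KO_PAPC) CPM. It was 1.42-fold lower in KO than in WT (-0.50 ± 0.0603 in edgeR, adjusted p = 4.28e-09) and 2.26-fold higher in KO_PAPC than in KO (1.18 ± 0.0584 in edgeR, adjusted p = 5.04e-20).

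The regulators of ATGL did not move as a group. *Hilpda*, an inhibitor of ATGL that is known to be induced by hypoxia and fatty acids (chromosome 6, 29272488 to 29275446), had the highest level per length of the 9 lipolysis genes in WT and KO_PAPC and was at 22.9, 22.5 and 23.6 (WT), 12.6, 12.6 and 12.7 (KO), and 32.1, 29.7 and 31.1 (KO_PAPC) CPM. The groups did not overlap, KO being lowest and KO_PAPC highest. It was 1.82-fold lower in KO than in WT (-0.86 ± 0.0560 in edgeR, adjusted p = 1.34e-15) and 2.44-fold higher in KO_PAPC than in KO (1.29 ± 0.0565 in edgeR, adjusted p = 1.20e-21). *G0s2*, the other inhibitor, was at 2.71, 2.49 and 2.92 (WT), 0.842, 0.824 and 0.798 (KO), and 1.32, 1.23 and 1.13 (KO_PAPC) CPM, on 24 to 84 counts per library. It was 3.29-fold lower in KO than in WT (-1.72 ± 0.175 in edgeR, adjusted p = 1.17e-10). KO_PAPC stayed 2.21-fold below WT (-1.15 ± 0.165 in edgeR, adjusted p = 1.08e-06). The KO_PAPC libraries lay above those of KO (0.57 ± 0.222 in edgeR, adjusted p = 0.0187), a call that was lost without KO_PAPC replicate 1 (0.52, adjusted p = 0.0612) and in DESeq2. *Abhd5* (CGI-58), the coactivator of ATGL, was not called between KO and WT (-0.027 ± 0.0529 in edgeR, adjusted p = 0.655) and was lower with PA/PC (-0.54 ± 0.0618 in edgeR, adjusted p = 5.02e-10).

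For the lipolysis class as a whole, KO had 5 of 9 members higher than WT (55.6%) and 3 lower (33.3%). The median difference was 0.25 on the log2 scale, and of all tested genes 36.8% were higher and 37.1% lower. In KO_PAPC versus KO, 3 were higher (33.3%) and 6 lower (66.7%), with a median of -0.54, against 39.6% and 42.2% of all genes. Past 2-fold, 2 went each way (22.2%), where 6.26% of all genes rose and 14.4% fell. In KO_PAPC versus WT, 2 were higher (22.2%) and 6 lower (66.7%), with a median of -0.41, against 34.2% and 36.4% of all genes.

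The windows before *Mgll*, which fell most among these genes, and *Hilpda*, which rose most, are given in the same way, at chr6:88724162-88724411 and chr6:29272238-29272487, both on the plus strand. The *Mgll* window held 23 CpG and 1 CACGTG, whose letters contain ACGTG on either strand, and 1 annotated exon overlaps the window. Of all mouse windows, 6.02% hold CACGTG and 16.6% ACGTG, against 6.52% and 19.6% of the members' windows. None of the 5 motifs was found in this *Hilpda* window, which held 7 CpG. RefSeq has a second start for each gene, and those windows are not printed. The one for *Hilpda*, chr6:29272376-29272625, held 1 ACGTG and 23 CpG, and the one for *Mgll*, chr6:88724454-88724703, held 1 ACGTG and 40 CpG.
Mgll: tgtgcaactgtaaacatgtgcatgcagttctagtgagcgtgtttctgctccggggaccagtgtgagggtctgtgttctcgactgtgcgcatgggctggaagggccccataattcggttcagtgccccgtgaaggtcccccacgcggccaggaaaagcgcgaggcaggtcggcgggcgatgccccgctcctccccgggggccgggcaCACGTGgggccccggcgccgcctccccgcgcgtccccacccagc
Hilpda: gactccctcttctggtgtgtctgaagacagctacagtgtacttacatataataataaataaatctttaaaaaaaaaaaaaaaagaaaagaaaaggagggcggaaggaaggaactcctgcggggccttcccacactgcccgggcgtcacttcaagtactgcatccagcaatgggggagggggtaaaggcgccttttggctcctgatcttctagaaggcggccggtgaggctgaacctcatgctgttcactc

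**Figure D3:**
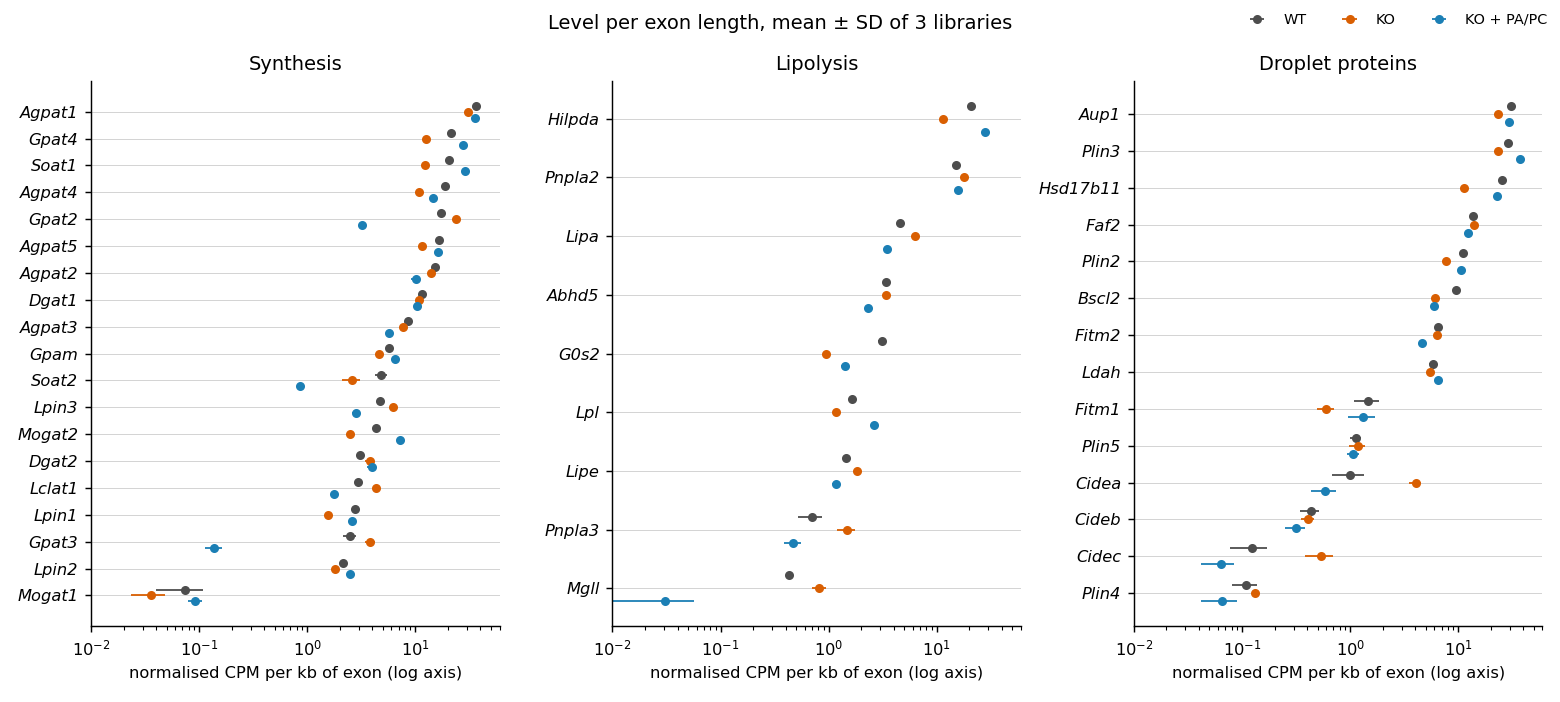
Mean level of each of the 42 members in normalised CPM per kb of exon on a log axis, with the SD of 3 libraries as a bar, in WT, KO and KO_PAPC EBs. *Agpat1*, *Aup1* and *Plin3* are at the top of their ranges, the adipocyte proteins *Plin4* and *Cidec* and the enzyme *Mogat1* are at the bottom, and *Gpat3* and *Mgll* have the widest gaps between KO and KO_PAPC. The SD bar of *Mgll* in KO_PAPC runs past the left edge.

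Among the perilipins, *Plin3* (TIP47), which moves from the cytosol to nascent LDs, had the highest level per length. *Plin3* was at 109, 112 and 108 (WT), 87.0, 90.4 and 86.2 (KO), and 140.1, 144 and 141 (KO_PAPC) CPM, KO lowest and KO_PAPC highest without overlap. It was 1.25-fold lower in KO than in WT (-0.32 ± 0.0301 in edgeR, adjusted p = 1.50e-11) and 1.605-fold higher in KO_PAPC than in KO (0.68 ± 0.0312 in edgeR, adjusted p = 4.05e-21). *Plin2* (adipophilin), the perilipin that coats LDs of most cells, had group means of 38.7 ± 2.18, 26.8 ± 0.566 and 37.4 ± 1.5 CPM (SD, n = 3) in WT, KO and KO_PAPC. It was lower in KO (-0.53 ± 0.0465 in edgeR, adjusted p = 2.80e-12), higher with PA/PC (0.48 ± 0.0475 in edgeR, adjusted p = 1.93e-11), and not told apart between KO_PAPC and WT (-0.058 ± 0.0481 in edgeR, adjusted p = 0.284).

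*Plin5*, the perilipin of oxidative tissues, ranged from 1.98 to 2.83 CPM and was called in none of the 3 contrasts (edgeR adjusted p = 0.790, 0.384 and 0.553). *Plin4*, found mainly in adipocytes, was at 0.234 to 0.796 CPM. It was called lower in KO_PAPC than in KO (-0.99 ± 0.312 in edgeR, adjusted p = 0.00420) but not in DESeq2 (-0.99, adjusted p = 0.0726). The family total per length was 41.3 ± 0.623, 32.1 ± 0.592 and 49.1 ± 1.07 CPM per kb in WT, KO and KO_PAPC, of which *Plin3* made up 70.3%, 72.2% and 76.0%.

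The CIDE proteins, which fuse droplets in fat, showed the largest differences of KO from WT, from low levels. *Cidea* was at 1.52, 1.04 and 0.799 (WT), 4.68, 4.95 and 3.86 (KO), and 0.700, 0.790 and 0.468 (KO_PAPC) CPM, on 116 to 144 counts in KO libraries and 12 to 45 elsewhere. It was 3.98-fold higher in KO than in WT (1.99 ± 0.165 in edgeR, adjusted p = 7.89e-13) and 6.87-fold lower in KO_PAPC than in KO (-2.78 ± 0.186 in edgeR, adjusted p = 4.06e-16). KO_PAPC was also below WT (-0.79 ± 0.276 in edgeR, adjusted p = 0.0136), but this was not called without WT replicate 1 (-0.50, adjusted p = 0.139), without KO_PAPC replicate 3 (-0.60, adjusted p = 0.0844) or in DESeq2. *Cidec* (FSP27), which makes the large droplet of white adipocytes, had 9, 4 and 7 counts in WT libraries, 39, 22 and 28 in KO and 2, 3 and 4 in KO_PAPC. The KO libraries stood above all others. The edgeR log2 fold change was 2.10 ± 0.330 in edgeR, adjusted p = 8.31e-07 for KO against WT and -3.05 ± 0.397 in edgeR, adjusted p = 1.10e-08 for KO_PAPC against KO, where the ratio of counts was 8.53 (exact 95% interval 4.3 to 19.3).

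*Cideb*, the member of liver, was not called in any contrast (adjusted p = 0.799, 0.259 and 0.178), and 76.3% of its exonic bases overlap the antisense gene *Nop9*, so that many of its reads may have been left out of the count. Overlaps of over 10% with other genes were also annotated for *Agpat5* (19.0%), *Abhd5* (16.0%), *Lipe* (15.6%), *Mogat1* (12.8%), *Fitm1* (11.2%) and *Bscl2* (10.8%), and the libraries did not keep strand. The 3 CIDE genes summed to 1.56 ± 0.272 CPM per kb in WT, 4.98 ± 0.476 in KO and 0.964 ± 0.149 in KO_PAPC. The 5 adipocyte markers were too low to test in any contrast and summed to 0.173 to 0.209 CPM in WT, 0.303 to 0.432 in KO and 0.078 to 0.316 in KO_PAPC libraries.

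**Figure D4:**
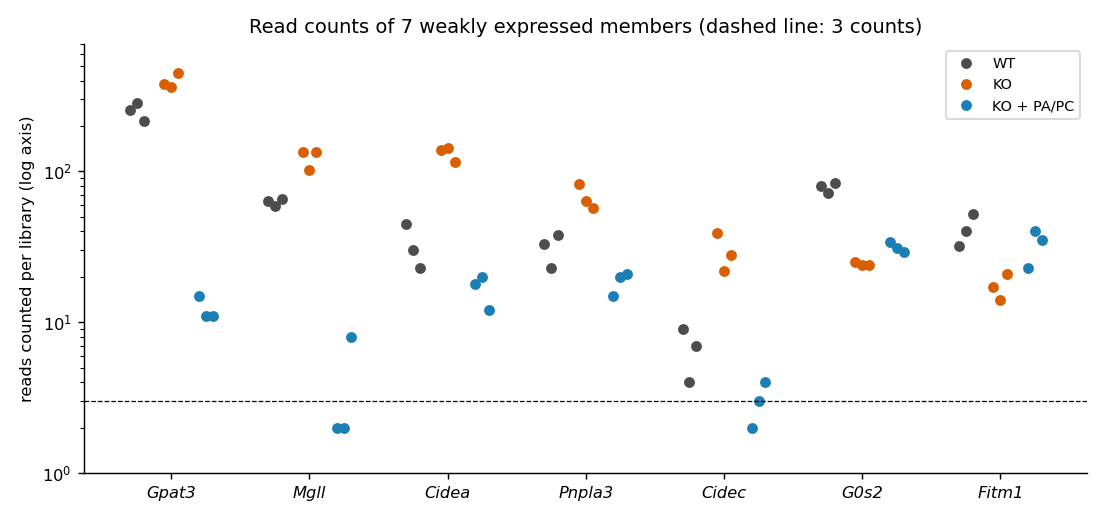
Reads counted in each of the 9 libraries for 7 weakly expressed members, on a log axis, with a dashed line at 3 counts. *Gpat3* and *Mgll* go from 102 or more counts in every KO library to 15 or fewer in KO_PAPC, and *Cidea* and *Cidec* have most counts in KO.

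LD assembly proteins split. *Bscl2* (seipin), which shapes the budding droplet, was lower than WT in KO (-0.64 ± 0.0394 in edgeR, adjusted p = 3.29e-16) and stayed there with PA/PC (-0.024 ± 0.0451 in edgeR, adjusted p = 0.628 against KO). *Fitm2*, the broadly expressed member of the FIT proteins that pass TAG into droplets, did not separate KO from WT (-0.025 ± 0.0483 in edgeR, adjusted p = 0.653) and was lower in KO_PAPC than in KO (-0.47 ± 0.0563 in edgeR, adjusted p = 1.45e-09). *Fitm1*, the FIT protein of muscle, was at 1.08, 1.38 and 1.81 (WT), 0.573, 0.481 and 0.698 (KO), and 0.894, 1.58 and 1.36 (KO_PAPC) CPM, on 14 to 52 counts. KO libraries were the lowest, and WT and KO_PAPC overlapped. The difference was -1.28 ± 0.241 in edgeR, adjusted p = 1.68e-05 for KO against WT and 1.117 ± 0.258 in edgeR, adjusted p = 0.000180 for KO_PAPC against KO.

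*Hsd17b11*, a dehydrogenase that resides on LDs, had the largest difference from WT in KO among members above 10 CPM. It was at 86.4, 79.5 and 82.4 (WT), 36.0, 36.9 and 38.9 (KO), and 73.7, 75.6 and 75.0 (KO_PAPC) CPM. KO libraries lay at 38.9 CPM or below and all others at 73.7 CPM or above. It was 2.22-fold lower in KO than in WT (-1.15 ± 0.0390 in edgeR, adjusted p = 1.75e-23) and 2.00-fold higher in KO_PAPC than in KO (1.001 ± 0.0394 in edgeR, adjusted p = 3.88e-23), and KO_PAPC stopped slightly short of WT (-0.15 ± 0.0379 in edgeR, adjusted p = 0.000831). *Aup1*, an LD protein of the ubiquitin machinery, was at 101, 99.8 and 98.2 (WT), 76.5, 76.9 and 74.1 (KO), and 96.1, 99.6 and 96.2 (KO_PAPC) CPM, with KO lowest (-0.40 ± 0.0308 in edgeR, adjusted p = 1.59e-13 against WT) and KO_PAPC not told apart from WT (-0.043 ± 0.0336 in edgeR, adjusted p = 0.259). Of its exonic bases, 23.0% overlap *Htra2*.

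*Ldah*, an LD-associated hydrolase, ranged from 39.1 to 48.5 CPM, and *Faf2* (UBXD8), which recruits the segregase p97 to LDs, from 99.2 to 116 CPM. Neither was called in KO versus WT (-0.095 ± 0.0452 in edgeR, adjusted p = 0.0584 for *Ldah* and 0.041 ± 0.0284 in edgeR, adjusted p = 0.191 for *Faf2*). Without WT replicate 3 *Ldah* was called lower in KO (-0.15, adjusted p = 0.00805). *Ldah* was higher and *Faf2* lower in KO_PAPC than in KO, by 0.24 and -0.19. The call of *Ldah* above WT in KO_PAPC (0.14 ± 0.0491 in edgeR, adjusted p = 0.0150) was lost without WT replicate 3 (0.09, adjusted p = 0.137), and scaling by library totals changed its sign.

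Of the 14 droplet proteins, KO had 2 higher than WT (14.3%) and 6 lower (42.9%), where 36.8% and 37.1% of all tested genes were. Their median difference was -0.088 on the log2 scale. In KO_PAPC versus KO, 6 were higher (42.9%) and 5 lower (35.7%), near the 39.6% and 42.2% of all genes, with a median of -0.087. The 2 past 2-fold were *Cidea* and *Cidec*, both lower (14.3%), where 14.4% of all genes were. In KO_PAPC versus WT, 2 of 13 tested were higher (15.4%) and 5 lower (38.5%), with a median of -0.15, against 34.2% and 36.4% of all genes.

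Set side by side, the classes differed in their medians and in their summed levels. Against WT, the median log2 fold changes of synthesis, lipolysis and droplet genes were -0.25, 0.25 and -0.088 for KO and -0.11, -0.41 and -0.15 for KO_PAPC. Against KO, those of KO_PAPC were 0.12, -0.54 and -0.087. The sums per length, which weigh short genes such as *Hilpda* more than plain CPM does, were all lowest in KO. Synthesis genes summed to 199.2 ± 3.22 CPM per kb in WT, 165.3 ± 1.27 in KO and 179.7 ± 3.15 in KO_PAPC. Lipolysis genes summed to 51.3 ± 0.681, 45.2 ± 1.1 and 55.2 ± 0.719 CPM per kb. *Hilpda*, an inhibitor, is the largest term of that sum in WT and KO_PAPC. Droplet proteins summed to 135.5 ± 1.13, 104.3 ± 0.972 and 133.5 ± 2.01 CPM per kb. Without division by length the order changed for lipolysis, whose genes summed to 156.4 to 163.3 CPM in KO libraries, above 149.9 to 152.4 for WT and 150.4 to 153.2 for KO_PAPC. For lipolysis the plain sum thus went with the median in both contrasts with KO and the sum per length against it. Synthesis genes in plain CPM stayed lowest in KO, at 778 to 785, and overlapped between WT (1016 to 1032) and KO_PAPC (1028 to 1047). These are descriptions without a test.

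**Figure D5:**
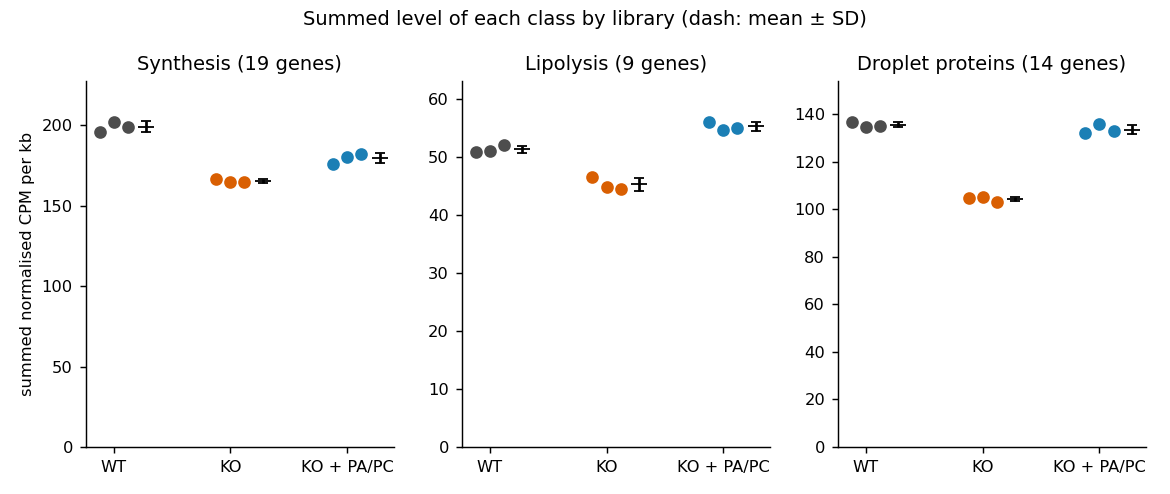
Summed normalised CPM per kb of the 19 synthesis, 9 lipolysis and 14 droplet protein genes in each library (points), with the mean and SD of 3 libraries (dash and bar) beside them. In every panel the 3 KO libraries are below the WT and KO_PAPC libraries, and for droplet proteins WT and KO_PAPC lie together.

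Genes around the droplet were read from 3 further lists. Of 25 genes of fatty acid uptake, binding and activation, 18 were tested. Between KO and WT, 6 were higher (33.3%) and 9 lower (50%) in KO, and with PA/PC 12 rose (66.7%) and 5 fell (27.8%). Over all tested genes the shares were 36.8% and 37.1% in KO versus WT, and 39.6% and 42.2% in KO_PAPC versus KO. *Vldlr*, a receptor for TAG-rich lipoproteins, had the largest difference in KO, with means of 44, 4.42 and 24.9 CPM for WT, KO and KO_PAPC (log2 fold change -3.31 ± 0.0643 in edgeR, adjusted p = 2.06e-30 and 2.49 ± 0.0763 in edgeR, adjusted p = 1.58e-26). *Lmf1*, the maturation factor of lipoprotein lipase, went the way of *Lpl*, -1.30 ± 0.0630 in edgeR, adjusted p = 4.87e-19 and 1.36 ± 0.0624 in edgeR, adjusted p = 4.54e-21. *Fabp3*, a fatty acid binding protein of heart of which 19.6% overlaps other genes, fell from 82.5 CPM in KO to 13.5 in KO_PAPC (-2.61 ± 0.0503 in edgeR, adjusted p = 7.02e-33). *Acsl1*, an acyl-CoA synthetase linked to TAG synthesis and oxidation, was higher in KO (0.77 ± 0.0375 in edgeR, adjusted p = 4.96e-19) and lower with PA/PC (-1.03 ± 0.0439 in edgeR, adjusted p = 5.14e-22), while *Acsl3*, which sits on nascent LDs, was not called in KO (0.017 ± 0.0307 in edgeR, adjusted p = 0.618) and rose with PA/PC (0.74 ± 0.0321 in edgeR, adjusted p = 9.13e-22).

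Of 17 regulators of lipid storage, 15 were tested in both contrasts with KO. In KO 6 of them were higher than in WT (40%) and 5 lower (33.3%), and with PA/PC 6 rose and 6 fell (40% each). These shares were near those of all tested genes, 36.8% and 37.1% in KO, and 39.6% and 42.2% with PA/PC. *Pparg*, the master regulator of adipocytes, had group means of at most 0.23 CPM and was not tested. *Ppara*, which drives fatty acid oxidation genes, had means of 0.287, 1.11 and 0.0655 CPM for WT, KO and KO_PAPC (1.94 ± 0.291 in edgeR, adjusted p = 3.86e-07 and -4.01 ± 0.424 in edgeR, adjusted p = 8.99e-11). *Cebpa*, a factor of adipocytes and liver, rose in KO (1.41 ± 0.123 in edgeR, adjusted p = 2.93e-12) and fell with PA/PC (-2.93 ± 0.171 in edgeR, adjusted p = 6.92e-18). *Srebf1*, which drives lipid synthesis genes, had group means of 89.4 to 98.2 CPM and differed little, by 0.12 ± 0.0380 in edgeR, adjusted p = 0.00406 in KO and 0.0065 ± 0.0375 in edgeR, adjusted p = 0.876 with PA/PC. *Hif1a* rose slightly with PA/PC (0.26 ± 0.0303 in edgeR, adjusted p = 7.63e-10), and *Epas1* (HIF-2α) fell (-1.27 ± 0.0470 in edgeR, adjusted p = 6.32e-24).

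Of 14 genes of LD contacts, lipoprotein assembly and lipophagy, all tested, KO had 6 higher than WT (42.9%) and 5 lower (35.7%). With PA/PC 5 rose (35.7%) and 7 fell (50%). Among all tested genes 36.8% were higher and 37.1% lower in KO, while 39.6% rose and 42.2% fell with PA/PC. *Apob*, the scaffold of TAG-rich lipoproteins, had means of 14, 28.6 and 3.6 CPM (1.03 ± 0.0525 in edgeR, adjusted p = 1.80e-18 for KO against WT, -2.99 ± 0.0762 in edgeR, adjusted p = 4.67e-29 for KO_PAPC against KO). *Mttp*, which loads lipid onto it, was lower in KO than in WT (-0.53 ± 0.0493 in edgeR, adjusted p = 1.54e-11) and lower again with PA/PC (-1.24 ± 0.0606 in edgeR, adjusted p = 3.44e-20). Both are made by visceral endoderm. Its 10 markers all fell with PA/PC, whereas in KO *Afp*, *Ttr* and *Apoa1* were higher than in WT and the other 7 lower. The part of these shifts in the values of *Apob* and *Mttp* was not tested. *Atg2a*, a lipid transfer protein of autophagosomes and LDs, was higher in KO (1.117 ± 0.0360 in edgeR, adjusted p = 4.62e-24) and lower with PA/PC (-1.63 ± 0.0408 in edgeR, adjusted p = 2.94e-29). *Spart* (spartin), a droplet receptor of lipophagy, was not called in any contrast, and its difference was 0.013 ± 0.0383 in edgeR, adjusted p = 0.760 in KO versus WT. *Vim*, the intermediate filament gene that the study links to LD formation, had means of 197, 48 and 416 CPM (-2.04 ± 0.0298 in edgeR, adjusted p = 1.05e-33 in KO versus WT, 3.11 ± 0.0315 in edgeR, adjusted p = 3.27e-41 in KO_PAPC versus KO).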

How the data were processed

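Read counts per gene were measured in 9 libraries, 3 each of WT, KO and KO_PAPC embryoid bodies, grouped and numbered by their titles. The authors sequenced unstranded TruSeq libraries for 51 cycles from one end and deposited counts of reads per Ensembl gene. Per the labels the tools were bcl2fastq 2.20.0.422, STAR 2.7.2b and featureCounts 1.6.5 on GRCm38. The deposited counts were whole and not normalized, and 0 columns were left unused. An earlier pipeline is also described for WT and KO EBs, but all 9 columns came in 1 table. The kit does not mark strand. By the study's methods reads mapping to several places or lying over several genes were left out, so overlapping genes can lose reads. The strand setting for these libraries was not given separately.

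The 42 members and the other gene lists were chosen with earlier results of these data known. All 42 were matched by symbol to GENCODE M21, which also gave coordinates and exon lengths. Of 55471 IDs, 241 had no match. Every tested gene entered the fits, and only members and listed genes were read out. Each contrast was fitted on its own 6 libraries with edgeR 4.0.16 in R 4.3.3 (TMM, filterByExpr, glmQLFTest, two-sided, Benjamini-Hochberg adjustment over all tested genes), and called at an adjusted p under 0.05. Changes past 2-fold were tested with glmTreat at a log2 fold of 1. SE was derived from the F statistic. The scripts were tested on simulated data. Replicates of a group differed beyond sampling noise (chi-square tests over genes holding 20 counts or more).

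A member was given in every library when its group mean reached 1 CPM and a called difference was at least 2-fold, or when it was among the 3 highest per length in its class. Promoter windows were 250 bases before the start from RefSeq, and 33 of 42 members had one. Results were recomputed with DESeq2 1.42.0, with RLE size factors or library totals as scaling, with no filter or a mean of at least 10 counts, with all 9 libraries in a single model, with a replicate block, and without each library in turn. Same-numbered libraries of different groups did not deviate together (r from -0.11 to 0.18 over 9 pairs), so the numbers were not treated as pairs.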

Additional observations from a re-analysis of the deposited data

How the results depend on the processing

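Of 1586 log2 fold changes of members recomputed under the alternatives, 1540 kept their side of the threshold, 24 lost the call and 20 gained one. Another 2 changed direction with a call in the main or the alternative fit. Values called in neither fit were counted among the 1540 also where their sign changed. Both of these reversals came from scaling by library totals in KO_PAPC versus WT: *Pnpla2* went from 0.046 to -0.12 and *Ldah* from 0.14 to -0.026. That scaling shifts all genes in both contrasts with KO_PAPC by about the same amount, to a median of -0.18. In KO_PAPC versus KO it gave 15 members higher and 20 lower: *Agpat1*, *Ldah* and *G0s2* (0.41, edgeR adjusted p = 0.0914) lost their calls, and *Bscl2* and *Dgat1* were now called lower. In KO_PAPC versus WT it took the calls of *Gpam* and *Lpin2*, and *Agpat1*, *Agpat5*, *Lpin1*, *Plin2*, *Plin4* and *Aup1* were now called lower. The number of members called past 2-fold in KO versus WT was 4, and 2 in DESeq2, which dropped *G0s2* and *Cidec*. In KO_PAPC versus KO the number was 14, and 10 in DESeq2. With each library left out in turn, the members called were 33 to 34 in KO versus WT, 35 to 36 in KO_PAPC versus KO and 27 to 31 in KO_PAPC versus WT.

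A replicate block gave 33, 36 and 32 called members in these contrasts and 4, 14 and 4 past 2-fold, and no call was lost among the members, while *Agpat1* (-0.057, edgeR adjusted p = 0.04) and *Agpat5* (-0.064, adjusted p = 0.00485) were now called lower in KO_PAPC versus WT. The class medians kept their sign except that of the synthesis genes in KO_PAPC versus KO, which ranged from -0.042 under library totals to 0.21. The cause of these changes was not tested beyond the scaling itself. Depth limits *Mogat1*, *Cidec*, *Plin4*, *Cideb* and, in KO_PAPC, *Mgll*, which rest on few counts.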
